A study of Mus musculus with 12 samples.

Results

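The 10 genes described here belong to the Bcl2 family of survival and death proteins: Bcl2a1a, Bcl2a1b, Bcl2a1d, Mcl1, Bcl2, Bcl2l1, Bcl2l11, Bax, Bbc3 and Pmaip1. They were taken by symbol from a table of 38349 genes, each symbol stood in it once, and all 10 passed the filter on low counts that left 22915 genes for testing. The RNA came from lung tissue of mice labelled wild type, in 12 libraries of 4 groups with 3 libraries each. The tpMSC and MSC groups were given those treatments, and the ALI and Control groups are the acute lung injury model and the normal lungs. The series title names hypoxia and LPS, a component of the bacterial cell wall, as the injury in which the treatments were studied. What the names MSC and tpMSC stand for, and the strain, age, dose, route and time of sampling, were not given in the sources used here.

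Members of the Bcl2 family meet at the outer membrane of the mitochondrion, where they set whether a cell opens that membrane and dies by apoptosis. The guardians Mcl1, Bcl2, Bcl2l1 (Bcl-xL) and the Bcl2a1 proteins (A1) hold the pore former Bax in check, and the BH3-only proteins Bcl2l11 (Bim), Bbc3 (Puma) and Pmaip1 (Noxa) bind the guardians and set Bax free. Neutrophils, which gather in an injured lung, are known to lean on Mcl1 and the Bcl2a1 proteins for survival, while Bcl2l1 is used by many epithelial cells.

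Libraries held between 53083002 and 70209229 counts, and levels are given as FPKM, fragment counts scaled to transcript length and library size, which allows levels of different genes to be compared. Lung markers were found in every group: the 6 alveolar type 2 markers summed to between 12266 and 21449 CPM (counts scaled to library size) over all libraries, and none was at 0. Other lung markers moved with the groups: 6 of 6 endothelial, 5 of 5 alveolar type 1 and 3 of 3 club cell markers were lower in ALI than in Control lungs. In tpMSC against ALI, 6 of 6, 3 of 5 and 3 of 3 of these lists were higher and 5 of 5 B cell markers were lower, and in MSC against ALI 2, 1 and 1 were higher. The part of these markers in the results for the members and their partners was not tested. The labels do not say whether the 3 libraries of a group came from separate animals, so the p-values reflect variation among the libraries at hand, possibly of technical origin. A gene was called higher or lower at an adjusted p under 0.05 in edgeR's quasi-likelihood test over all 22915 genes, with fold changes on the log2 scale, and every p printed for a gene is that adjusted p unless named otherwise. In bulk tissue, fewer cells of a type and less RNA per cell cannot be told apart.

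In ALI lungs, some survival genes and some death genes of the family were higher, while Bcl2, Bax and Bbc3 were not called. Against Control lungs, 5 of the 10 members were higher (Bcl2a1b, Mcl1, Bcl2l1, Bcl2l11 and Pmaip1) and none was lower, where 39.8% of all genes tested were called, 20.2% higher and 19.6% lower. The 3 libraries of ALI and of Control did not overlap in FPKM for 7 members, against 55.6% of all genes. The median log2 fold change of the 10 members was 0.82, beside -0.02 for all genes.

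Both treatments had lower Mcl1 and Bcl2l11 than ALI lungs. In MSC against ALI lungs these were the 2 members called, where 10.2% of all genes were called (5.03% higher and 5.21% lower), and the groups did not overlap for 3 members against 26.9% of all genes. In tpMSC against ALI lungs 2 members were lower (Mcl1 and Bcl2l11) and 1 was higher (Bbc3), where 23.1% of all genes were called (11.6% higher and 11.5% lower), and 3 members did not overlap against 39.5% of all genes. The median log2 fold change of the members was -0.03 in MSC and -0.08 in tpMSC lungs, beside 0.02 and 0.01 for all genes. The ALI libraries are shared by both treatment comparisons and by ALI against Control.

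Between the treatments themselves, tpMSC against MSC, edgeR called none of the 10 members, and 7 of 22915 genes in all (0.0305%, with 0.0175% higher and 0.0131% lower). That count over all genes was unstable, at 670 with DESeq2, 0 with only those groups fitted, and 386 without tpMSC replicate 3. Without MSC replicate 1, 2 or 3 it was 104, 52 and 18, without tpMSC replicate 1 or 2 it was 2 and 0, without Control replicate 1, 2 or 3 it was 1, 0 and 0, and without ALI replicate 1 or 3 it was 0 and 1. At an unadjusted p under 0.05 the count was 1 member, Bbc3, and DESeq2 and limma on log2(FPKM + 1) called 0 members each. No member was free of overlap between the treatments, where 13.3% of all genes were. Against Control lungs, 5 members were higher in MSC lungs (Bcl2a1a, Bcl2a1b, Bcl2a1d, Mcl1 and Bcl2l1; 18.7% of all genes called, 10.7% higher and 8.00% lower) and 4 in tpMSC lungs (Mcl1, Bcl2l1, Bbc3 and Pmaip1; 15.9% of all genes called, 9.10% higher and 6.79% lower). Without overlap there were 5 members in MSC and 7 in tpMSC lungs, against 37.9% and 38.7% of all genes. Both comparisons share the Control libraries, and the median log2 fold change of the members was 0.39 in MSC and 0.44 in tpMSC lungs, beside -0.0054 and -0.0057 for all genes.

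**Figure D1:**
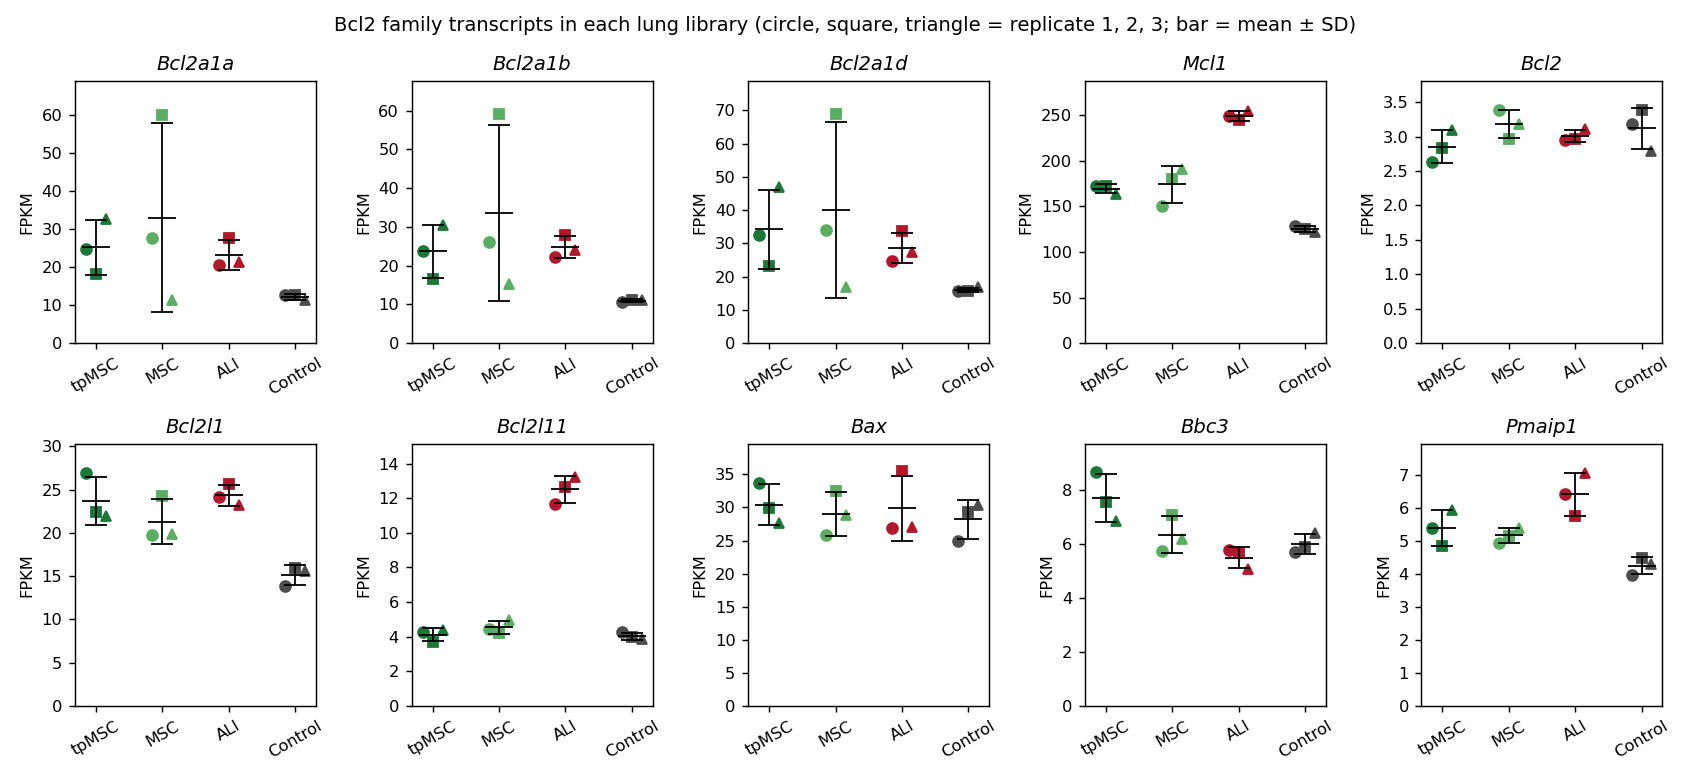
Deposited FPKM of each member (y axis, from 0) in tpMSC, MSC, ALI and Control libraries (x axis), with 1 symbol per replicate and a bar for the mean ± SD of 3 libraries. Mcl1 and Bcl2l11 stand apart in ALI, Bcl2 and Bax overlap in all groups, and the 3 Bcl2a1 genes spread most in MSC lungs.

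**Figure D2:**
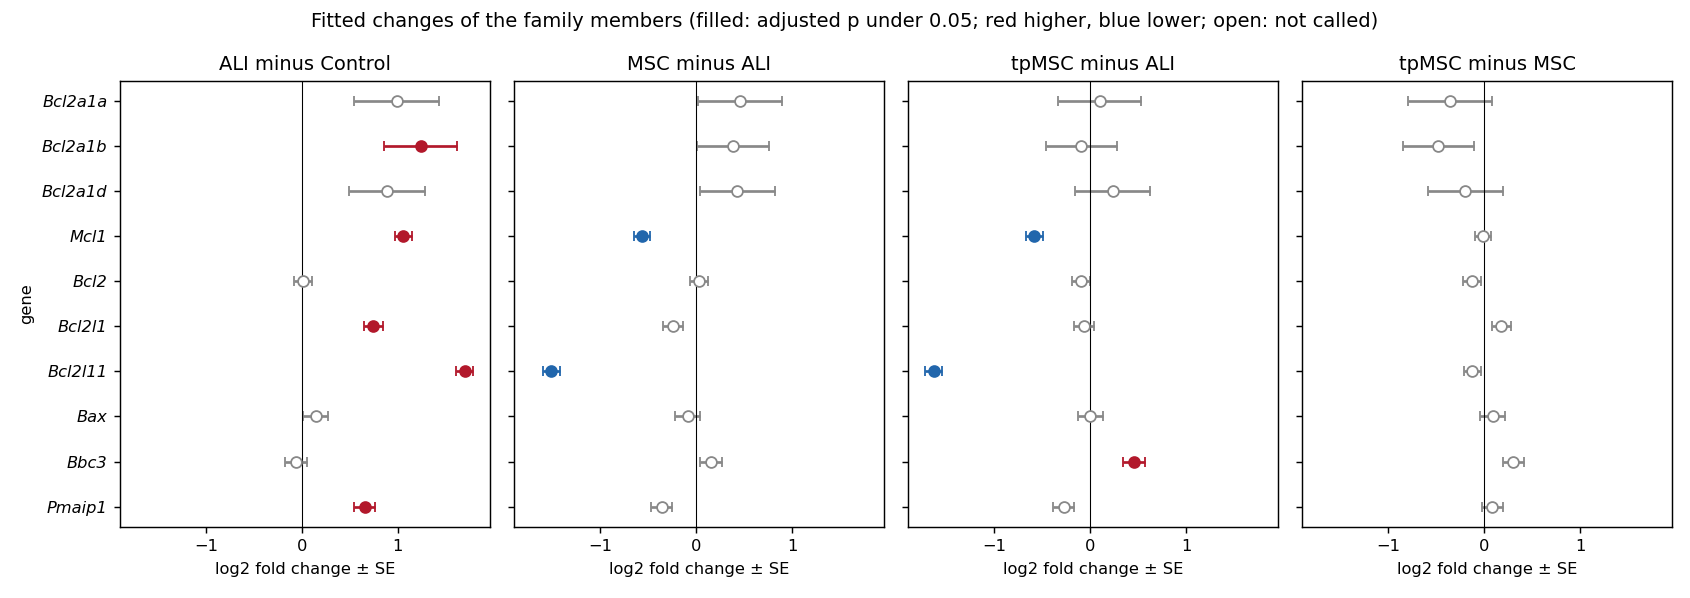
Fitted log2 fold change ± SE (x axis) of each member (y axis) in 4 comparisons, with filled points for an adjusted p under 0.05. Bcl2l11 has the largest changes among the members, 1.70 in ALI against Control, -1.51 in MSC against ALI and -1.63 in tpMSC against ALI, and no point is filled in tpMSC against MSC.

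Mcl1, a guardian protein with a very short life in the cell, was the most abundant member in every group. It stood at 173, 172 and 163 FPKM in tpMSC lungs, 151, 180.5 and 191 in MSC lungs, 249, 244 and 255 in ALI lungs and 128, 125 and 122 in Control lungs (replicates 1, 2 and 3 in turn, here and below). Every ALI library lay above every other library and every Control library below, while tpMSC and MSC libraries overlapped. Mcl1 (ENSMUSG00000038612, chromosome 3, 95658788 to 95663176, plus strand, GRCm38) was 2.08-fold higher in ALI than in Control lungs (log2 fold change 1.06 ± 0.09 SE, adjusted p = 5.25e-06). It was lower than in ALI in MSC lungs (log2 fold change -0.57 ± 0.09 SE, adjusted p = 0.00221) and in tpMSC lungs (log2 fold change -0.58 ± 0.09 SE, adjusted p = 0.000712). Against Control it was still higher in MSC lungs (log2 fold change 0.49 ± 0.09 SE, adjusted p = 0.00285) and in tpMSC lungs (log2 fold change 0.47 ± 0.09 SE, adjusted p = 0.00448). In tpMSC against MSC lungs the log2 fold change was -0.01 ± 0.09 SE. The order of levels was thus ALI, MSC, tpMSC and Control, with MSC and tpMSC not separated beyond their spread.

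Bcl2l1, the gene of Bcl-xL, was higher than in Control lungs in all 3 other groups. Its levels were 26.9, 22.4 and 21.9 FPKM in tpMSC lungs, 19.7, 24.3 and 19.9 in MSC lungs, 24.1, 25.6 and 23.2 in ALI lungs and 13.9, 15.96 and 15.6 in Control lungs. No Control library reached the lowest library of another group, and the other 3 groups overlapped each other. Bcl2l1 (ENSMUSG00000007659, chromosome 2, 152780668 to 152831728, minus strand) differed from Control in ALI lungs (log2 fold change 0.74 ± 0.10 SE, adjusted p = 0.000159), in MSC lungs (log2 fold change 0.50 ± 0.10 SE, adjusted p = 0.00629) and in tpMSC lungs (log2 fold change 0.68 ± 0.10 SE, adjusted p = 0.00197). It was not called in MSC against ALI (log2 fold change -0.24 ± 0.10 SE, adjusted p = 0.166) or in tpMSC against ALI (log2 fold change -0.06 ± 0.10 SE, adjusted p = 0.711). Without MSC replicate 2, the highest of the MSC libraries, the MSC against ALI difference was called (log2 fold change -0.35, adjusted p = 0.0394).

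Bcl2, the founding guardian of the family, was the least abundant member on the FPKM scale and passed the test in no comparison. It stood at 2.63, 2.83 and 3.10 FPKM in tpMSC lungs, 3.38, 2.97 and 3.19 in MSC lungs, 2.95, 2.96 and 3.11 in ALI lungs and 3.19, 3.38 and 2.79 in Control lungs. All 4 groups overlapped. For Bcl2 (ENSMUSG00000057329, chromosome 1, 106538178 to 106714274, minus strand) the fitted change in ALI against Control was 0.01 ± 0.09 SE on the log2 scale, with an adjusted p of 0.951, and its sign turned in limma on log2(FPKM + 1), at -0.038. An antisense transcript, D630008O14Rik, lies across the gene with 41 counts in all 12 libraries together.

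Bcl2a1a, Bcl2a1b and Bcl2a1d encode A1, a guardian made mostly by blood cells, and are near copies of each other on mouse chromosome 9. The start of their coding sequences is shown because the letters that differ decide how far reads can be told apart. Of 519 coding bases, the first 120 are given from GENCODE M21 transcripts of GRCm38, and capitals mark 7 of the 12 positions at which the 3 genes are not all alike:
Bcl2a1a: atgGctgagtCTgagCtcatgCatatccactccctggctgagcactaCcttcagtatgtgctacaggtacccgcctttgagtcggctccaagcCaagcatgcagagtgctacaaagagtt
Bcl2a1b: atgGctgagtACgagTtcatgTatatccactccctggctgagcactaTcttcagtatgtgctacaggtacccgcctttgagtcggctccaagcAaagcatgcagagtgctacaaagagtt
Bcl2a1d: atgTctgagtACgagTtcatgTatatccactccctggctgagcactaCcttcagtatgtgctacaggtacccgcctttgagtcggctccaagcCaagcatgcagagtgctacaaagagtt
Bcl2a1a and Bcl2a1b differ at 11 bases (97.9% identical), Bcl2a1a and Bcl2a1d at 7 (98.7%), and Bcl2a1b and Bcl2a1d at 6 (98.8%). Of all 150-base stretches of its transcript, as long as 1 sequenced read, 28.2% of Bcl2a1a, 14.2% of Bcl2a1b and 30.3% of Bcl2a1d occur unaltered in another of the 3. How the counting divided such reads is not given in the sources used here, so the single values are uncertain and the sum of the 3 genes is given beside them.

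Bcl2a1a (ENSMUSG00000102037, chromosome 9, 88956900 to 88962419, plus strand) stood at 24.7, 18.2 and 32.7 FPKM in tpMSC lungs, 27.6, 60.0 and 11.2 in MSC lungs, 20.6, 27.7 and 21.2 in ALI lungs and 12.7, 12.6 and 11.4 in Control lungs. For Bcl2a1b (ENSMUSG00000089929, chromosome 9, 89199209 to 89207827, plus strand) the levels were 23.9, 16.6 and 30.5 FPKM in tpMSC, 26.2, 59.1 and 15.4 in MSC, 22.3, 27.9 and 24.1 in ALI and 10.5, 11.1 and 11.2 in Control lungs. Bcl2a1d (ENSMUSG00000099974, chromosome 9, 88723285 to 88731914, minus strand) had 32.4, 23.2 and 46.9 FPKM in tpMSC, 34.0, 68.9 and 16.9 in MSC, 24.7, 33.7 and 27.4 in ALI and 15.7, 15.8 and 16.8 in Control lungs. Control libraries lay close together and below all ALI and tpMSC libraries for all 3 genes. MSC libraries spread widest: replicate 2 was the highest and replicate 3 the lowest of the 9 libraries outside Control for each of the 3 genes, and for Bcl2a1a replicate 3 lay below the Control libraries. The 3 genes kept similar parts of their summed CPM in all 12 libraries, 25.3% to 31.8% for Bcl2a1a, 26.5% to 34.6% for Bcl2a1b and 37.8% to 44.0% for Bcl2a1d. Other genes overlap them: Gm29094 on the strand of Bcl2a1b, with 613 counts over 12 libraries, and Gm10634 antisense to Bcl2a1d, with 400.

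The summed Bcl2a1 level was 74.3, 54.3 and 103 CPM in tpMSC lungs, 79.5, 172 and 40.1 in MSC lungs, 63.4, 85.0 and 68.8 in ALI lungs and 35.4, 35.8 and 35.7 in Control lungs. ALI and Control did not overlap, yet the sum did not pass the test in the fit of all 12 libraries (log2 fold change 1.02 ± 0.40 SE, adjusted p = 0.0607). Of the single genes, Bcl2a1b was called in ALI against Control (log2 fold change 1.24 ± 0.38 SE, adjusted p = 0.0223), while Bcl2a1a (log2 fold change 0.99 ± 0.44 SE, adjusted p = 0.0966) and Bcl2a1d (log2 fold change 0.89 ± 0.40 SE, adjusted p = 0.0958) were not. The Bcl2a1b call was lost without Control replicate 1, 2 or 3 (adjusted p = 0.0679, 0.0617 and 0.0585) and without ALI replicate 2 (0.0631). The outcome for the sum turned on the MSC libraries, which share the estimate of spread: without MSC replicate 2 or 3 it was called (adjusted p = 0.00866 and 0.0119), as it was with ALI and Control alone in the fit (log2 fold change 1.03, adjusted p = 9.04e-05). Bcl2a1a and Bcl2a1d were likewise called without MSC replicate 2 (0.0203 and 0.0235) or 3 (0.0154 and 0.0261).

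No Bcl2a1 gene was called in either treatment against ALI. The log2 fold change of the sum was 0.42 ± 0.39 SE in MSC and 0.10 ± 0.39 SE in tpMSC lungs, with adjusted p = 0.572 and 0.893 in edgeR's test. Without MSC replicate 2 the MSC value was -0.28, and without tpMSC replicate 3 the tpMSC value was -0.16. Against Control the sum was called in MSC lungs (log2 fold change 1.45 ± 0.40 SE, adjusted p = 0.0277), and that call was lost without MSC replicate 2 (log2 fold change 0.74, adjusted p = 0.115) and without Control replicate 1, 2 or 3 (0.0851, 0.0858 and 0.0776). In tpMSC lungs it was not called (log2 fold change 1.12 ± 0.40 SE, adjusted p = 0.0792), but was without MSC replicate 2 or 3 (0.0134 and 0.0191) and with tpMSC and Control alone in the fit (0.00822). The single genes called in MSC against Control were Bcl2a1a (log2 fold change 1.44 ± 0.44 SE, adjusted p = 0.0416), Bcl2a1b (log2 fold change 1.63 ± 0.38 SE, adjusted p = 0.0133) and Bcl2a1d (log2 fold change 1.32 ± 0.40 SE, adjusted p = 0.0388). Leaving out MSC replicate 2 ended the calls of Bcl2a1a (0.208) and Bcl2a1d (0.182), and leaving out Control replicate 1 ended those of all 3 (0.107, 0.0521 and 0.11 in the order of the genes). Bcl2a1a and Bcl2a1d also lost theirs without Control replicate 2 (0.111 and 0.112) or 3 (0.115 and 0.0932), ALI replicate 1 (0.0581 and 0.0536) or 3 (0.0568 and 0.0537) and tpMSC replicate 1 (0.0567 and 0.0529), and Bcl2a1a without ALI replicate 2 (0.0507). In tpMSC against Control the single genes were not called, at log2 fold changes of 1.09 ± 0.44 SE for Bcl2a1a, 1.15 ± 0.38 SE for Bcl2a1b and 1.12 ± 0.40 SE for Bcl2a1d (adjusted p = 0.119, 0.0618 and 0.0763). All 3 were called there without MSC replicate 2 (0.0274, 0.00605 and 0.0172) or 3 (0.0228, 0.0187 and 0.0206) and with only those groups fitted (0.0088, 0.00756 and 0.0129), and DESeq2 called Bcl2a1b (0.0459).

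Markers of neutrophils, alveolar macrophages and monocytes moved across the same libraries. The 12 neutrophil markers summed to 638, 725 and 685 CPM in tpMSC, 628, 924 and 1048 in MSC, 3896, 4066 and 3917 in ALI and 319.6, 246 and 217 in Control lungs. All 12 were higher in ALI than in Control lungs and all 12 were lower in each treatment than in ALI, so the sum of neutrophil markers was highest in ALI, where the Bcl2a1 sum overlapped that of both treatments. The 7 alveolar macrophage markers summed to 233, 223 and 156 CPM in tpMSC, 92.9, 253 and 26.0 in MSC, 19.4, 21.5 and 21.4 in ALI and 248, 230.4 and 202 in Control lungs. Of these 7, 6 were lower in ALI than in Control lungs, 2 were higher in MSC than in ALI and 6 were higher in tpMSC than in ALI. In MSC lungs, replicate 2 had the highest and replicate 3 the lowest sum of the Bcl2a1 genes, the alveolar macrophage markers and the monocyte markers. This order did not extend to tpMSC lungs, where replicate 3 had the highest Bcl2a1 sum and the lowest alveolar macrophage sum. Control libraries had the lowest Bcl2a1 sums of all, beside alveolar macrophage sums of 202 to 248 CPM. Summed CPM of 6 monocyte markers was 270, 293 and 481 in tpMSC, 459, 593 and 397 in MSC lungs. It was 1217, 1334 and 1296 in ALI and 145, 135 and 166 in Control lungs. Of these 6, 5 were higher in ALI than in Control lungs, and 2 in MSC and 4 in tpMSC lungs were lower than in ALI. No marker of these 3 lists was at 0 throughout a group, and their part in the Bcl2a1 result was not tested.

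**Figure D3:**
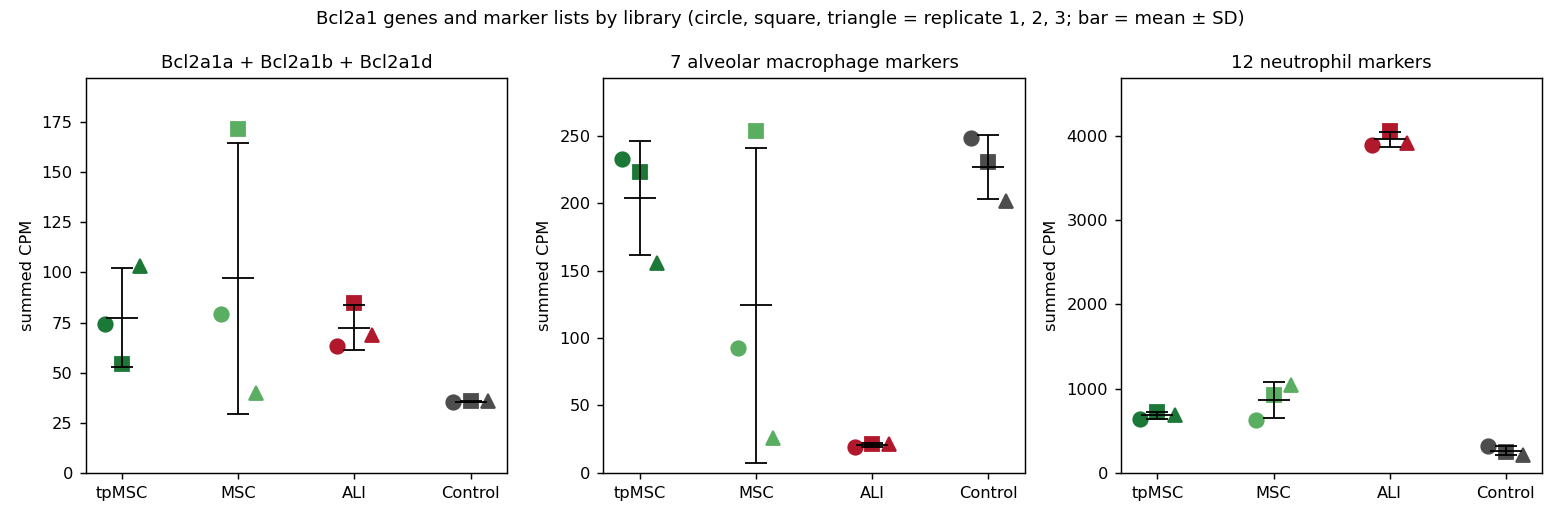
Summed CPM (y axes, from 0) of the 3 Bcl2a1 genes, 7 alveolar macrophage markers and 12 neutrophil markers in each library of the 4 groups (x axis), with the mean ± SD of 3 libraries. Neutrophil markers stand between 3896 and 4066 CPM in ALI and at 1048 CPM or less elsewhere, while the Bcl2a1 sum overlaps between ALI and both treatments and is widest in MSC lungs.

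Set against the mean log2 CPM of the neutrophil markers, the log2 CPM of the Bcl2a1 sum differed by 1.38, 0.93 and 1.80 in tpMSC lungs, 1.40, 1.99 and -0.03 in MSC lungs, -1.39, -1.06 and -1.31 in ALI lungs and 1.91, 1.95 and 2.26 in Control lungs. Every ALI library was below every other library on this scale. The subtracted marker mean was 7.42 in ALI, 5.23 in MSC, 4.85 in tpMSC and 3.11 in Control lungs, while the Bcl2a1 sum itself was not lowest in ALI. The place of ALI on this scale is thus set by the markers and gives no Bcl2a1 level per neutrophil. Among 13035 genes with a mean of at least 1 FPKM, the members and predicted genes left out, the pattern of Bcl2a1b over the 12 libraries was most like that of Cybb, the catalytic subunit of the phagocyte oxidase, with a root mean square difference of 0.11 in centred log2 CPM. Csf2rb2, a receptor subunit of the interleukin 3 family (0.19), and Ckap2, a cytoskeleton protein of dividing cells (0.24), came next. Cybb averaged 41.7 FPKM in tpMSC, 59.5 in MSC, 42.9 in ALI and 19.1 in Control lungs.

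Bcl2l11, the gene of Bim, a BH3-only protein that can bind every guardian of the family, showed the largest change among the members. It stood at 4.27, 3.68 and 4.36 FPKM in tpMSC lungs, 4.46, 4.22 and 4.95 in MSC lungs, 11.7, 12.7 and 13.2 in ALI lungs and 4.24, 3.97 and 3.86 in Control lungs. All ALI libraries lay far above the others, and tpMSC, MSC and Control libraries overlapped. Bcl2l11 (ENSMUSG00000027381, chromosome 2, 128126038 to 128162547, plus strand) was 3.24-fold higher in ALI than in Control lungs (log2 fold change 1.70 ± 0.09 SE, adjusted p = 4.97e-07). It was lower than in ALI in MSC lungs (log2 fold change -1.51 ± 0.09 SE, adjusted p = 1.83e-05) and in tpMSC lungs (log2 fold change -1.63 ± 0.09 SE, adjusted p = 8e-06). Against Control it did not pass the test in MSC lungs (log2 fold change 0.19 ± 0.09 SE, adjusted p = 0.166) or tpMSC lungs (log2 fold change 0.06 ± 0.09 SE, adjusted p = 0.684). The calls of Bcl2l11 in ALI against Control and in each treatment against ALI held in all 19 alternatives, which changed the scaling, filter, tool or fit or left out 1 library. The calls of Mcl1 in the same comparisons did too. Like Mcl1 and Bcl2l11, 12 of 12 neutrophil markers were higher in ALI than in Control and lower in each treatment than in ALI. Against Control, 11 of the 12 markers were higher in MSC and 11 in tpMSC lungs, as was Mcl1, while Bcl2l11 was not called. The part of these markers in the Mcl1 and Bcl2l11 results was not tested.

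The promoter of Bcl2l11 is shown because this gene moved most. It is taken from RefSeq (GRCm38.p6, chr2:128125788-128126087, plus strand, 250 bases before to 50 after a start site), and capitals mark GTAAACA, a core of the site bound by forkhead (Foxo) factors, which are known to act on this gene:
Bcl2l11 promoter: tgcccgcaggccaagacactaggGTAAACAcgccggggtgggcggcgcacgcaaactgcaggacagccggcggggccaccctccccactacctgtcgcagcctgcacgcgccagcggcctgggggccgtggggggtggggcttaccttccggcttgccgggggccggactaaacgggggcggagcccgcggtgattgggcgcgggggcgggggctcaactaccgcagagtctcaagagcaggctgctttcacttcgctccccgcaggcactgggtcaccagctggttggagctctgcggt
This motif was chosen after the values were seen. On either strand it occurs in 1 of the 2 Bcl2l11 windows and in 1 of 3 Bbc3 windows, and in none of the windows of 7 other members, against 3.65% of 32851 promoters of the same length. GGG and CC with any 5 bases between them are the fixed letters of the kappa-B site of NF-kB. They occur on either strand in 10 of the 14 windows of these 9 members, against 50.8% of all promoters. By gene, 7 of the 9 had a match in some window. The 50.8% is a share of windows and no background for this count, since some genes have several windows. Windows of Bbc3 overlap in part, and all 3 hold a match. The promoter of Pmaip1 was not used here. In the Bcl2l11 window printed there are 3 matches on the forward and 2 on the reverse strand. Some of these share bases, so they are not 5 separate sites. No match to these letters overlapped a GTAAACA match in any window. The windows of Bcl2a1a and Bcl2a1d had no match to these fixed letters while that of Bcl2a1b had. These promoters are 96.0% to 99.2% identical to each other where they align. Bcl2a1b aligned with each of the others over 256 columns, and Bcl2a1a with Bcl2a1d over 300. The windows were not placed alike: that of Bcl2a1b ended at base 89199322 with the coding start at 89199360. For Bcl2a1a these bases were 88956969 and 88957051. The Bcl2a1b window thus holds bases outside the alignment, and whether its match lies there was not tested. The matches are therefore compared over unlike stretches and show no difference between the promoters themselves.

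Pmaip1, the gene of Noxa, which binds Mcl1 and A1, also rose in ALI lungs. It had 5.40, 4.85 and 5.94 FPKM in tpMSC lungs, 4.95, 5.17 and 5.41 in MSC lungs, 6.43, 5.76 and 7.08 in ALI lungs and 3.97, 4.49 and 4.31 in Control lungs. All Control libraries were below all others, and tpMSC overlapped both MSC and ALI. Pmaip1 (ENSMUSG00000024521) was higher in ALI than in Control lungs (log2 fold change 0.65 ± 0.11 SE, adjusted p = 0.000562), and the means of both treatments lay between those of ALI and Control. It was not called in MSC against ALI (log2 fold change -0.36 ± 0.11 SE, adjusted p = 0.0564) or tpMSC against ALI (log2 fold change -0.28 ± 0.11 SE, adjusted p = 0.0872), although DESeq2 called both (0.0132 and 0.0459), as did edgeR without tpMSC replicate 3 (0.0445 and 0.0454). Against Control it was called in tpMSC lungs (log2 fold change 0.38 ± 0.11 SE, adjusted p = 0.0356). That call was lost without Control replicate 1, 2 or 3 (0.129, 0.0674 and 0.0808), ALI replicate 1 (0.0535) and tpMSC replicate 1 or 3 (0.0712 and 0.124). In MSC against Control it was not called (log2 fold change 0.29 ± 0.11 SE, adjusted p = 0.0815), although DESeq2 called it (0.0385).

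Bbc3, the gene of Puma, a BH3-only protein best known as a p53 target, was the 1 member higher in a treatment than in ALI. Its levels were 8.64, 7.56 and 6.86 FPKM in tpMSC lungs, 5.73, 7.08 and 6.18 in MSC lungs, 5.75, 5.66 and 5.05 in ALI lungs and 5.69, 5.88 and 6.40 in Control lungs. All tpMSC libraries were above all ALI and Control libraries, and MSC libraries overlapped each of the other groups. Bbc3 (ENSMUSG00000002083, chromosome 7, 16308393 to 16318205, plus strand) rose in tpMSC against ALI lungs (log2 fold change 0.46 ± 0.11 SE, adjusted p = 0.0131), a call lost without ALI replicate 3 (0.0571) or tpMSC replicate 1 (0.064). Against Control it was also higher in tpMSC lungs (log2 fold change 0.39 ± 0.11 SE, adjusted p = 0.0361). That call was lost without Control replicate 1, 2 or 3 (0.13, 0.116 and 0.0596), ALI replicate 1 (0.0548) and tpMSC replicate 1 or 2 (0.128 and 0.073). In ALI against Control (log2 fold change -0.07 ± 0.11 SE, adjusted p = 0.691), MSC against ALI (log2 fold change 0.16 ± 0.11 SE, adjusted p = 0.447) and tpMSC against MSC (log2 fold change 0.30 ± 0.11 SE, adjusted p = 0.294) it was not called.

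Bax, a pore former of the family, passed the test in no comparison. It had 33.7, 30.0 and 27.6 FPKM in tpMSC lungs, 25.9, 32.5 and 28.8 in MSC lungs, 27.0, 35.5 and 27.1 in ALI lungs and 24.9, 29.3 and 30.4 in Control lungs, and all 4 groups overlapped. The change of Bax (ENSMUSG00000003873, chromosome 7, 45461697 to 45466898, minus strand) in ALI against Control was 0.14 ± 0.13 SE on the log2 scale, with an adjusted p of 0.417. The ratio of Bax to Bcl2 FPKM, a common summary of this family, averaged 10.8 ± 1.97 in tpMSC, 9.21 ± 1.65 in MSC, 9.95 ± 1.79 in ALI and 9.13 ± 1.61 in Control lungs (SD, n = 3 each), and its values overlapped between all groups. Bcl2 and Bax were thus the pair of members whose libraries overlapped in all 6 comparisons. Bak1, a pore former counted among the other family genes below, was higher in ALI than in Control lungs (log2 fold change 0.76 ± 0.19 SE, adjusted p = 0.00705). Bak1 was not called in MSC against ALI or tpMSC against ALI (adjusted p = 0.773 and 0.629).

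The ratio of Mcl1 to Bcl2l11 FPKM, chosen after the values were seen and therefore given without a test, was 40.5, 46.9 and 37.5 in tpMSC lungs, 33.8, 42.8 and 38.6 in MSC lungs, 21.3, 19.3 and 19.3 in ALI lungs and 30.2, 31.5 and 31.6 in Control lungs. ALI libraries were the lowest and did not overlap any other group, tpMSC and MSC overlapped each other, and both lay above Control. It averaged 41.6 ± 4.80 in tpMSC, 38.4 ± 4.47 in MSC, 19.97 ± 1.16 in ALI and 31.1 ± 0.791 in Control lungs (SD, n = 3 each). Over the 12 libraries, Mcl1 was most like Bcl10, an adaptor of NF-kB signalling (root mean square difference 0.08 in centred log2 CPM), Snx18, a sorting nexin (0.08), and Cdkn2d, a cell cycle inhibitor (0.09). Bcl2 was most like Ube4b, a ubiquitin ligase (0.04), Opa1, a fusion protein of the inner mitochondrial membrane (0.05), and Ano6, a phospholipid scramblase (0.06).

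**Figure D4:**
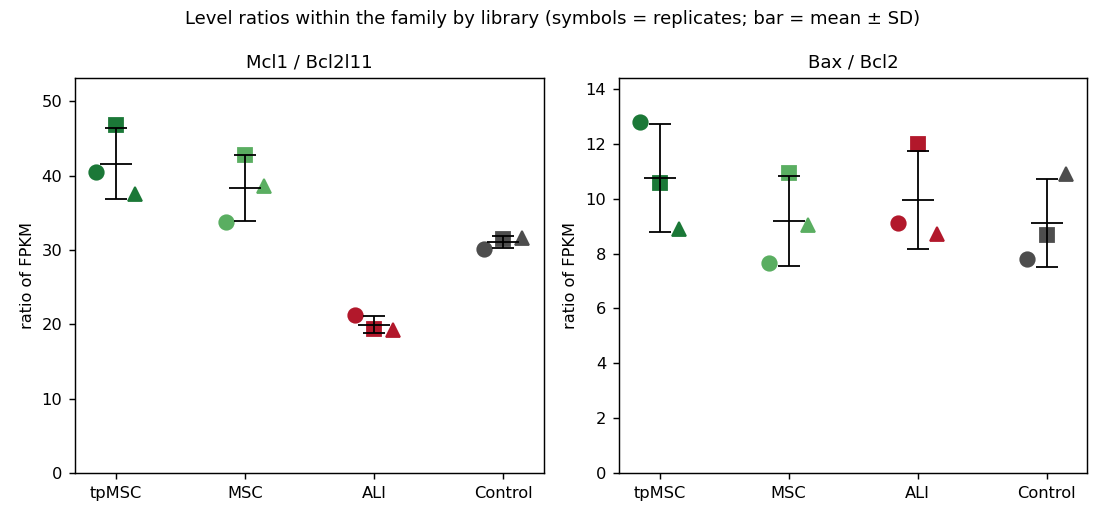
Ratio of FPKM values (y axes, from 0) of Mcl1 to Bcl2l11 and of Bax to Bcl2 in each library of the 4 groups (x axis), with the mean ± SD of 3 libraries. The Mcl1 to Bcl2l11 ratio is lowest in ALI, at 19.3 to 21.3, and the Bax to Bcl2 ratio overlaps between all groups.

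Partners of the members were examined by list, with each log2 fold change followed by its SE and each FPKM mean by its SD over 3 libraries. Of 16 other Bcl2 family genes, 13 were tested, and in ALI against Control lungs 6 were higher and 3 lower, with a median log2 fold change of 0.27 beside -0.02 for all genes. Beside this and the list counts that follow stand the shares of all genes: 20.2% higher and 19.6% lower in ALI against Control, 5.03% and 5.21% in MSC against ALI, and 11.6% and 11.5% in tpMSC against ALI. As for the members, the neutrophil markers moved across these groups, and their part in the partners' results was not tested. Bid, which links death receptors to Bax, had 5.85 ± 0.580 FPKM in ALI lungs and 1.29 ± 0.207 in Control lungs (log2 fold change 2.24 ± 0.23, adjusted p = 2.24e-05). Bcl2l15, a little studied relative, was barely present in Control lungs, with 1.49 ± 0.609 FPKM in ALI lungs and 0.027 ± 0.012 in Control lungs (log2 fold change 5.66 ± 0.46). The size of that change rests on the low Control level and spanned 1.25 to 6.04 over the alternatives, the lowest in limma on log2(FPKM + 1), with the call kept in all 19. The guardian Bcl2l2 and the mitophagy receptor Bnip3l were lower, by log2 fold changes of -0.39 ± 0.08 and -0.44 ± 0.09. In MSC against ALI 1 of the 13 was called, Bcl2l15 (log2 fold change -1.81 ± 0.36, spanning -2.11 to -0.77 over the alternatives with a highest adjusted p of 0.0499), and Bid was at -0.65 ± 0.22 without a call (adjusted p = 0.0901). In tpMSC against ALI 2 were higher and 3 lower, among them Bid (log2 fold change -1.19 ± 0.22, adjusted p = 0.00299), Bcl2l15 (-2.39 ± 0.37) and, upward, Bcl2l2 (0.30 ± 0.08), whose call was lost without ALI replicate 1 or 3 or tpMSC replicate 1 or 2 (highest adjusted p = 0.0807).

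The apoptosome and its executioners act after the membrane has opened. Of 12 genes, 3 were higher in ALI than in Control lungs, among them Cycs (cytochrome c, log2 fold change 0.67 ± 0.08) and the scaffold Apaf1 (0.43 ± 0.10), and 3 were lower, among them Casp6 (-0.64 ± 0.10), with a list median of 0.03, so that both shares were near those of all genes. In MSC against ALI edgeR called none of the 12, with 3 at an unadjusted p under 0.05, and DESeq2 called 1 and limma 0. In tpMSC against ALI 3 were lower, Apaf1 and Cycs among them, and 2 higher (Endog and Casp6). The call of Endog (adjusted p = 0.0382 in edgeR's test) was not examined in the alternatives. Apaf1 (-0.48 ± 0.10) kept that call in all 19 alternatives, while the calls of Cycs (-0.23 ± 0.08) and Casp6 (0.32 ± 0.10) held in 5 of 19 each (highest adjusted p = 0.195 and 0.178).

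Inhibitors of apoptosis, which block caspases or their activation, were higher in ALI lungs in 3 of 5 cases, with a median of 0.61. Birc3 had 44.5 ± 1.44 FPKM in ALI lungs and 9.39 ± 0.538 in Control lungs (log2 fold change 2.30 ± 0.19), and Birc5, the mitotic protein survivin, and Birc2 changed by 1.68 ± 0.26 and 0.61 ± 0.10. Birc6 was not called (0.18 ± 0.12). Birc3 was lower than in ALI in MSC lungs, at 21.9 ± 3.51 FPKM (-1.07 ± 0.19), and in tpMSC lungs, at 13.6 ± 4.46 FPKM (-1.73 ± 0.19; SD, n = 3 each), and was the 1 inhibitor called in MSC. In tpMSC lungs 3 of the 5 were lower, Birc2 (-0.47 ± 0.10) among them, while Birc5 was not called in MSC (-0.09 ± 0.25) or tpMSC lungs (0.07 ± 0.25).

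In the death receptor branch, which signals from the cell surface, 5 of 10 genes were higher and 1 lower in ALI lungs (median 0.35). The receptor Fas changed by 1.03 ± 0.13, the kinase Ripk1 by 0.84 ± 0.12, the caspase 8 inhibitor Cflar by 0.70 ± 0.12 and the TNF receptor Tnfrsf1a by 0.67 ± 0.11 on the log2 scale. Against ALI, 2 of the 10 were lower in MSC and 3 in tpMSC lungs. Fas was lower in both (MSC -0.55 ± 0.13, tpMSC -0.63 ± 0.13), but its MSC call held in 14 of 19 alternatives and was lost in the others: with MSC and ALI alone in the fit, and without ALI replicate 2 or 3 or MSC replicate 1 or 3 (highest adjusted p = 0.0922). The call of Tnfrsf1a in MSC lungs (-0.51 ± 0.11) was lost without ALI replicate 3 (0.0611). In tpMSC lungs the calls of Tnfrsf1a (-0.35 ± 0.11) and Ripk1 (-0.35 ± 0.11) held in 7 of 19 alternatives each (highest adjusted p = 0.159 and 0.174).

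Of 13 transcription factors known to act on members of the family, 9 were higher and 1, Foxo1, was lower in ALI than in Control lungs (median 0.43). Hif1a, the oxygen-sensing factor, had 56.2 ± 7.12 FPKM in ALI lungs and 15.98 ± 0.789 in Control lungs (log2 fold change 1.88 ± 0.16). Myc changed by 1.63 ± 0.17, the NF-kB subunit Rel, known to act on Bcl2a1 and Bcl2l1, by 1.46 ± 0.16, and Stat3, known to act on Mcl1, by 1.14 ± 0.13. Against ALI, 5 of the 13 were lower in MSC lungs, with Hif1a at -1.15 ± 0.15, Rel at -1.02 ± 0.15 and Myc at -0.84 ± 0.16. In tpMSC lungs 6 were lower and 1, Foxo3, was higher, with Hif1a at -1.50 ± 0.15, Rel at -1.45 ± 0.16 and Myc at -0.93 ± 0.16. Stat3 was not called in MSC (-0.42 ± 0.12), and its call in tpMSC lungs (-0.39 ± 0.12) held in 9 of 19 alternatives (highest adjusted p = 0.155).

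Of 6 genes that mark Mcl1 protein for destruction or spare it, 2 were higher and 2 lower in ALI lungs (median -0.04). The ligase Marchf5 changed by 0.51 ± 0.09 and the deubiquitinase Usp9x by 0.37 ± 0.08, while the ligase adaptor Btrc was at -0.44 ± 0.10 and the deubiquitinase Usp13 at -1.05 ± 0.22. Each direction thus held 1 gene that marks the protein and 1 that spares it. In MSC against ALI edgeR called none of the 6, with 2 at an unadjusted p under 0.05 and 0 called by DESeq2 or limma. In tpMSC against ALI 1 was called, Usp9x, at 8.33 ± 0.459 FPKM in tpMSC lungs and 10.5 ± 0.221 in ALI lungs (log2 fold change -0.36 ± 0.08; SD, n = 3 each).

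**Figure D5:**
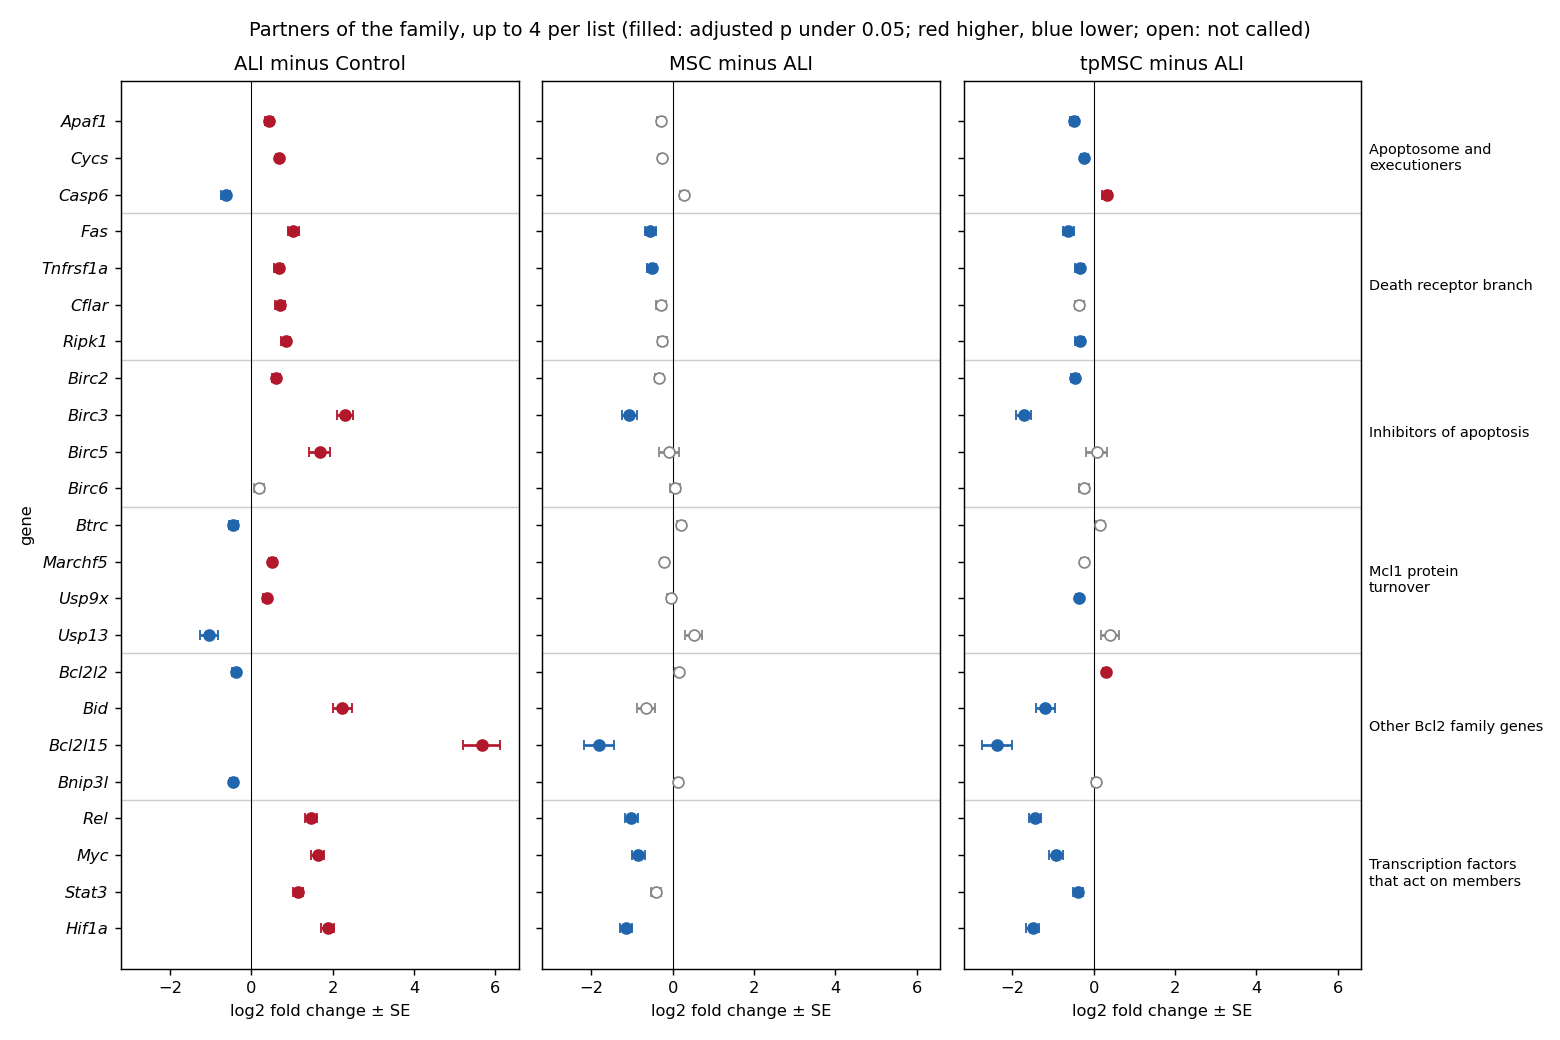
Fitted log2 fold change ± SE (x axis) of partner genes in ALI against Control, MSC against ALI and tpMSC against ALI. Up to 4 genes per list are shown (y axis, by list), those with the smallest p in ALI against Control. Bak1, Endog, Foxo1 and Foxo3 are named in the text but not shown. Filled points have an adjusted p under 0.05. Birc3, Hif1a, Rel and Myc are higher in ALI than in Control and lower in both treatments than in ALI.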

How the data were processed

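The authors deposited 1 table with raw counts and FPKM for each gene and library, per the file headers. The submitters' processing notes list edgeR, DESeq2, StringTie 1.3.4d, HISAT2 2.0.4 and cutadapt 1.9 with build GRCm38, in no stated role. The libraries were stranded (dUTP) read pairs of polyadenylated RNA, per the labels' protocols. The counter and its strand setting were not given in the sources used here, so reads of overlapping or antisense genes cannot be told apart. The number of value columns without a sample was 0.

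Genes were filtered with filterByExpr, counts were scaled by TMM, and all 4 groups were fitted together in edgeR 4.0.16 (R 4.3.3) by the quasi-likelihood test with Benjamini-Hochberg adjusted p-values over 22915 genes. The log2 fold changes come from that fit, and the Bcl2a1 sum replaced its 3 genes in a separate fit. Alternatives used DESeq2 1.42.0, limma 3.58.1 on the log2 of deposited FPKM plus 1 or 0.1, RLE scaling, no filter, a replicate block, the compared groups alone, and each library left out. The fit was tested on simulated data. Positions were taken from GENCODE M21 by gene ID, because the deposited positions equalled it for 670 of 35571 matched IDs. Libraries of 1 group were not duplicates.

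Members and lists were chosen with earlier results of these data known. All members are described, and from each wider list up to 4 genes with the smallest p in ALI against Control are named, except 1 that is not reported here. The 3 genes nearest in pattern are named for Bcl2a1b, Mcl1 and Bcl2. Bak1, Endog, Foxo1, Foxo3, the GTAAACA motif, the Mcl1 to Bcl2l11 ratio and the alternatives for wider-list genes and ratios were chosen after the values were seen. The calls of Bak1, Endog, Foxo1 and Foxo3 were not examined in the alternatives. Same-numbered libraries did not deviate together (correlations -0.108 to 0.104 over 18 pairs). Members had 605 to 60920 counts per library, and their SEs also carry the spread between libraries, which was widest for the Bcl2a1 genes.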

Additional observations from a re-analysis of the deposited data

How the results depend on the processing

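The Mcl1 and Bcl2l11 calls in ALI against Control and in each treatment against ALI, and the Bcl2l1 and Pmaip1 calls in ALI against Control, held in all 19 alternatives. Genes called in MSC against ALI numbered 2347, against 3604 with DESeq2 and 1221 with only those groups fitted. In tpMSC against MSC there were 7, against 4 with RLE scaling, 670 with DESeq2, 13 with limma on log2(FPKM + 0.1), and 0 with no filter, the replicate block or only those groups. Members called in MSC against Control were 3 of 10, in place of 5, with no filter, the block, only those groups or limma, and in tpMSC against Control 7 in place of 4 with only those groups. For the Bcl2a1 sum, fitting only the compared groups gave a call in ALI against Control (log2 fold change 1.03) and tpMSC against Control (1.13), and ended it in MSC against Control (1.45), as did the block (1.36) and limma (1.17 and 1.19). The sign turned for Bcl2 in ALI against Control with limma (-0.038 and -0.048), for Bcl2a1b in tpMSC against ALI when summed (0.10), and for Bax there with RLE (-0.01), DESeq2 (-0.0099) and only those groups (-0.0007). The cause of these differences was not tested.

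Replicate numbers did not pair the libraries (4 of 12 correlated best with their own number), so the block is given only as an alternative. With it Bbc3 in tpMSC against Control had an adjusted p of 0.0543.

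Leaving out 1 library gave 7456 to 9460 genes in ALI against Control, 1084 to 2930 in MSC against ALI, 3399 to 5800 in tpMSC against ALI, 0 to 386 in tpMSC against MSC, 2465 to 4751 in MSC against Control and 1830 to 4247 in tpMSC against Control. Members called in the same order were 4 to 7, 2 to 3, 2 to 4, 0 to 0, 2 to 5 and 2 to 7, and the sum's log2 fold changes were 0.89 to 1.11, -0.28 to 0.80, -0.16 to 0.30, -0.70 to 0.38, 0.74 to 1.82 and 0.86 to 1.33. For some members the log2 fold change turned sign when 1 library was left out. In ALI against Control it was -0.071 to 0.068 for Bcl2 and -0.0026 to 0.21 for Bax. In MSC against ALI it was -0.31 to 0.87 for Bcl2a1a, -0.31 to 0.74 for Bcl2a1b, -0.23 to 0.80 for Bcl2a1d, -0.0012 to 0.077 for Bcl2 and -0.18 to 0.072 for Bax. In tpMSC against ALI it was -0.14 to 0.28 for Bcl2a1a, -0.32 to 0.11 for Bcl2a1b, -0.067 to 0.45 for Bcl2a1d and -0.068 to 0.16 for Bax. In tpMSC against MSC it was -0.77 to 0.42 for Bcl2a1a, -0.82 to 0.22 for Bcl2a1b, -0.56 to 0.46 for Bcl2a1d and -0.11 to 0.064 for Mcl1. In MSC against Control it was -0.037 to 0.10 for Bcl2, -0.037 to 0.14 for Bax and -0.0018 to 0.17 for Bbc3.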
